A study of Mus musculus with 2 samples.

Results

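The subject is the replication-dependent histone genes of the mouse Hist clusters, in cells of a transplanted liver tumour. They were taken as every gene of the SIGLEC15 antibody library whose symbol begins Hist1h to Hist4h, which gave 63 of the 18685 genes in that library's matrix: 6 genes for the linker histone H1, 17 for H2A, 16 for H2B, 12 for H3 and 12 for H4. The rule used the symbols alone and no measured value, but it was set with earlier results of these data known. Of the 63, 62 had at least 1 unique molecular identifier (UMI, the tag that counts 1 captured RNA molecule), 55 had at least 50 UMIs and 24 had at least 500. Hist2h2aa2 had none.

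The study compared Hep1-6 tumours, a mouse hepatoma line grown as percutaneous grafts, in mice injected intraperitoneally with IgG or with an antibody against SIGLEC15. All mice were wild-type C57BL/6 males aged 6 to 8 weeks on a normal diet under specific pathogen free conditions, with 3 mice in each group and 1 library for each group. No label ties a cell to a mouse, so each library counts as 1 sample and no comparison below has a test. Cells enriched on beads for CD45, a surface protein of blood-derived cells, were loaded 1:1 with unsorted cells of the digested tumours, so the proportions of tumour and immune cells were set by the loading. The IgG matrix held 105 complete gene rows and 1 row that was cut short, with none of the 63 histone genes among the complete ones, so the histone results concern the antibody library only and say nothing of the treatment.

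Histones are the proteins on which DNA is wound: H2A, H2B, H3 and H4 form the core of the nucleosome, and H1 binds the DNA between the cores. The Hist cluster genes are mostly transcribed during S phase, when new DNA needs new histones, and their mRNA usually ends at a stem-loop in place of a poly-A tail. Some of these genes can also give poly-A tailed mRNA, which is known from cells that have stopped dividing. The libraries were 10x Genomics single cell 3′ v2 libraries, in which poly-A RNA is reverse transcribed, so histone mRNA without a tail is largely outside the measurement and the levels below cannot be read as total histone mRNA.

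The antibody library held 5482 cells with 74168827 UMIs, from 553 to 46558 UMIs per cell with a median of 13714.5, in 30 clusters named by the authors, of which 26 had at least 50 cells. The clusters came from the expression of these same cells by a method not given in the sources used here, so differences between them are descriptions. 11 cell barcodes were shared by the libraries. In the antibody library the markers fixed for hepatoma cells summed to 9178 CPM (UMIs scaled to a group total of 1000000) in the tumour clusters, T cell markers to 2783 CPM in the T cell clusters and 2.59 CPM in the tumour clusters, and neutrophil markers to 56540.5 CPM in MDSC_1 to MDSC_4, which the authors named as myeloid-derived suppressor cells. The doublet caller marked 3 of 5482 cells (0.0547%), too few for doublets to be weighed, and no cell was removed as a doublet.

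The stem-loop is shown because it is the feature that sets these mRNAs apart from others. A match to the histone stem-loop was found in the GENCODE M21 transcripts (GRCm38) of 42 of the 63 genes (66.7%), against 33 of 21810 other coding genes (0.151%). All 63 genes were matched by symbol, since the authors' build is not given in the sources used here. By type the match was present in 4 of 6 H1 genes, 11 of 17 H2A genes, 9 of 16 H2B genes, 8 of 12 H3 genes and 10 of 12 H4 genes. Only the longest transcript model of each gene was searched. A gene without a match may thus have a stem-loop beyond the end of its model. The sites of 6 genes that recur below follow, as RNA-sense DNA letters with the stem and loop in capitals.
Hist1h1e: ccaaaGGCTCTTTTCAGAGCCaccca
Hist1h1c: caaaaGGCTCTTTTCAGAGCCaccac
Hist1h2ap: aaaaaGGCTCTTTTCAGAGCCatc
Hist1h2ae: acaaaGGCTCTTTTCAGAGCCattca
Hist1h4d: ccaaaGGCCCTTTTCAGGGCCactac
Hist1h4i: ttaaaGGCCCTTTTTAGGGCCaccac
The 16 capital letters differed little between genes: 25 of the 42 genes carried the form of Hist1h1e, Hist1h1c, Hist1h2ap and Hist1h2ae, 6 carried that of Hist1h4d, and 2 carried that of Hist1h4i. Hist1h1e and Hist1h1c, whose levels differed widely between clusters, had identical stems and loops. What followed the stem-loop differed more, with 3 bases left in the Hist1h2ap model, 840 in Hist1h1c, 330 in Hist1h4i and 1153 in Hist1h1e. A match in a gene model describes these letters and does not show that an mRNA ended there.

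The promoters of 4 genes are shown because they form pairs of the same histone type whose levels ran apart across the clusters: Hist1h1b and Hist1h1c of H1, and Hist1h4d and Hist1h4i of H4. Each run is the 250 bases before the annotated start from RefSeq (GRCm38.p6), read 5′ to 3′ on the gene's strand, with matches on either strand in capitals to the box CCAAT, to the TATA box written TATAAA, to the octamer ATTTGCAT and to the element AAACACA.
Hist1h1b, chr13:21780626-21780875, minus strand: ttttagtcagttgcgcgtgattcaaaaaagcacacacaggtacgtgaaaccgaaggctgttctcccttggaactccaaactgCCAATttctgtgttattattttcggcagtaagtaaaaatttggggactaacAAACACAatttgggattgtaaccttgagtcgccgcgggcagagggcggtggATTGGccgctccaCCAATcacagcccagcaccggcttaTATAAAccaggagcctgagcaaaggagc
Hist1h1c, chr13:23738557-23738806, plus strand: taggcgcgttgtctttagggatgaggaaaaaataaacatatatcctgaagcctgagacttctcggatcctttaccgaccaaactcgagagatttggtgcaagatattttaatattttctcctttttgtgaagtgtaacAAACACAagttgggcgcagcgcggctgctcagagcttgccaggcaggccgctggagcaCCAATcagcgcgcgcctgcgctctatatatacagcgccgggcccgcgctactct
Hist1h4d, chr13:23581318-23581567, plus strand: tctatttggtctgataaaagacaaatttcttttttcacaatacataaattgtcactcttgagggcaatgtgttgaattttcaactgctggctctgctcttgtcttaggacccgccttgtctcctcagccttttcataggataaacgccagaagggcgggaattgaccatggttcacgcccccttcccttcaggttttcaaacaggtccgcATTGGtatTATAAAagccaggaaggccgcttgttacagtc
Hist1h4i, chr13:22041363-22041612, minus strand: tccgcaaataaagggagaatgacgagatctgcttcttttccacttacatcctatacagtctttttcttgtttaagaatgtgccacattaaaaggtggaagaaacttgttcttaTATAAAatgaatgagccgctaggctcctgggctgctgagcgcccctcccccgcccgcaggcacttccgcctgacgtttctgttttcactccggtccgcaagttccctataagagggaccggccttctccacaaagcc
These motifs have long been linked to histone promoters, the octamer to those of H2B and the element to those of H1. In the 300 base promoters held for 57 of the genes (58 promoters, 250 bases before the start and 50 after), CCAAT was found in 50 of 58 (86.2%), against 37.4% of all 32851 promoters. All the H1, H2A, H2B and H3 promoters held it, and 3 of 11 H4 promoters did. TATAAA was found in 32 (55.2%), against 13.6% of all promoters. The octamer ATTTGCAT was found in 6 of 15 H2B promoters and in 6 of 16 H2A promoters, against 1.74% of all, and AAACACA in 5 of 6 H1 promoters, against 7.18% of all. Many H2A and H2B genes stand head to head, with starts 176 to 302 bases apart. The promoters of such partners overlap, so the same match of a motif can count for both genes. The H2A and H2B counts are thus not separate. No matches of different motifs overlapped. Hist1h1b and Hist1h1c both held CCAAT and AAACACA, and Hist1h1b held the exact letters TATAAA where Hist1h1c did not. Hist1h4d and Hist1h4i both held TATAAA, but that of Hist1h4i lay much farther before the start than that of Hist1h4d. Hist1h4d held CCAAT where Hist1h4i did not. Only exact letters were searched, at any distance from the start. A promoter without TATAAA may thus still have a TATA box of other letters, and a match need not be one.

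The 63 genes summed to 78890 UMIs, or 1064 CPM (95% interval 1056 to 1071). All intervals are exact and cover counting error only, and UMIs from the 3′ end are not scaled by gene length. H1 genes gave 38.4% of the UMIs (409 CPM), H2A 30.7% (327 CPM), H2B 16.5% (175 CPM), H4 7.75% (82.4 CPM) and H3 6.62% (70.4 CPM). A few genes carried most of the signal: the 3 highest gave 38.4%, the 5 highest 55.4% and the 10 highest 72.9%. The highest was Hist1h1e with 11529 UMIs, followed by Hist1h2ap with 10218, Hist1h1b with 8526, Hist1h1c with 7514 and Hist1h2bc with 5924. The nucleosome contains equal numbers of the core histones, so these shares cannot be read as protein demand. The parts of poly-A primed capture and of sequence shared between genes in these shares were not tested.

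Across the 26 clusters of at least 50 cells, the summed level ran from 356 CPM (342 to 371) in Tumor_6 to 9652 CPM (9495 to 9810) in CD8_T_1, a cluster of 208 CD8 T cells. Macrophage_2 followed with 3729 CPM (3639 to 3820) and Tumor_7 with 2279 CPM (2237 to 2322), and their intervals did not overlap one another or that of CD8_T_1. MDSC_1 came next with 1728 CPM (1570 to 1898), with Macrophage_4 at 1625 (1415 to 1857) and Fibroblast&Endothelial_2 at 1566 CPM (1432 to 1709). These intervals overlapped, so the order of these clusters is not settled. Tumor_4 had 1497 CPM (1427 to 1570). The 3 highest clusters were also high in the summed lists of S phase genes (DNA replication genes such as Mcm2 and Pcna) and of G2 and M phase genes (mitosis genes such as Top2a and Cdk1). CD8_T_1 had 3069 CPM in the S phase list and 5468 CPM in the G2 and M phase list, the highest of both, and Tumor_7 had 2891 and 2390 CPM. The order of the histone sum was not that of either list: Tumor_2 stood second in the G2 and M phase list at 4313 CPM and had 1139 CPM of histone UMIs.

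**Figure D1:**
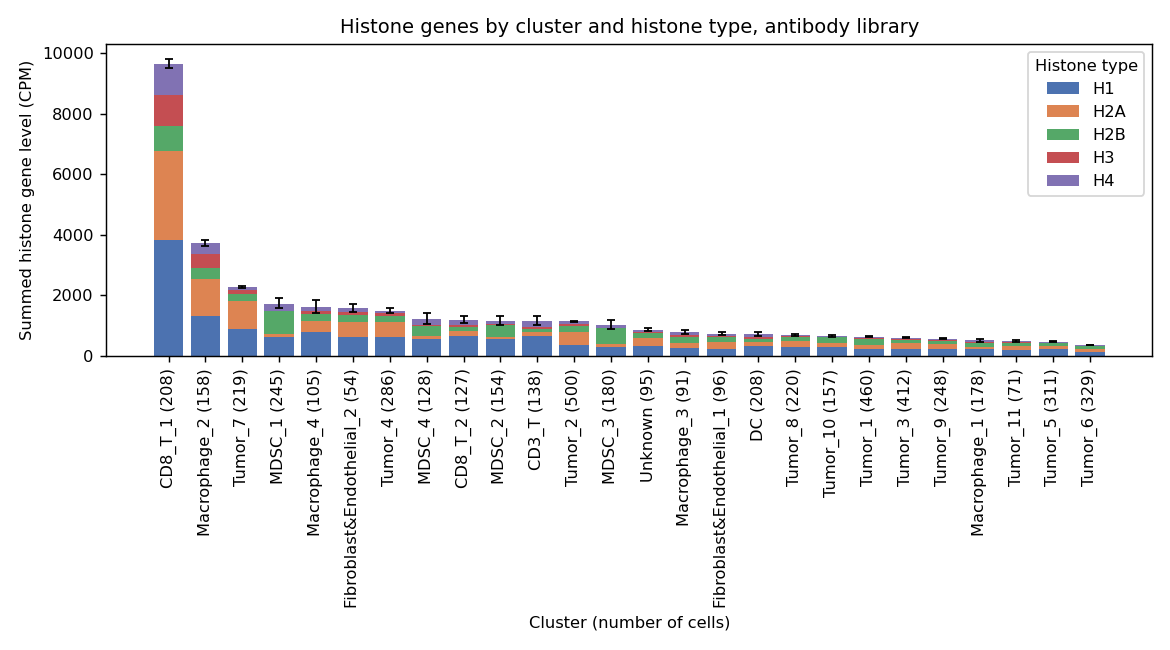
Summed level of the 63 histone genes in CPM for each cluster of at least 50 cells of the antibody library, split by histone type, with bars for the 95% counting interval of the sum and the number of cells after each name. CD8_T_1 stands at 9652 CPM, above Macrophage_2 at 3729 and Tumor_7 at 2279, and Tumor_6 is lowest at 356.

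The mix of types also differed between clusters. In CD8_T_1, H1 gave 39.6% of the histone UMIs, H2A 30.5%, H4 10.8%, H3 10.6% and H2B 8.55%. In MDSC_1, H2B gave 43.1%, H1 35.8%, H4 13.9%, H2A 5.92% and H3 1.37%. MDSC_1 was thus high in the family sum through other genes than CD8_T_1. There, Hist1h2bc alone gave 35.1% of the histone UMIs, Hist1h1c 28.2% and Hist1h4i 11.2%, and with Hist1h2be these genes gave 81.3%. In CD8_T_1 the leading genes were Hist1h1b with 19.5%, Hist1h1e with 13.2%, Hist1h2ap with 11.5%, Hist1h2ae with 9.31% and Hist1h4d with 7.37%. Tumor_7 was led by Hist1h2ap with 22.5%, Hist1h1b with 17.1% and Hist1h1e with 15.2%. Of the 55 genes with at least 50 UMIs, 39 were highest in CD8_T_1, 4 in MDSC_1 (Hist1h1c, Hist1h2bc, Hist1h4i and Hist2h3c1) and 3 in Tumor_7 (Hist1h2ad, Hist1h2bl and Hist2h2be). The place of Hist2h3c1 rests on too few UMIs to be read. All H3 genes together had 6 UMIs in MDSC_1, of which Hist1h3e had 4 and Hist1h3a 1.

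The H1 genes code for linker histone subtypes. Hist1h1b, which codes for H1.5, had 1881 CPM in CD8_T_1, 615 in Macrophage_2 and 390 in Tumor_7, and its lowest level was 8.39 CPM in Tumor_6, with a median of 41.3 over the 26 clusters. Hist1h1e, which codes for H1.4, had 1275 CPM in CD8_T_1, 372 in CD8_T_2 and 370 in Macrophage_4, and its lowest level was 44.3 CPM in MDSC_3, with a median of 120 CPM. The lowest and highest levels of Hist1h1b thus lay farther apart than those of Hist1h1e. Hist1h1d, for H1.3, had 288 CPM in CD8_T_1 and 108 in CD3_T, and was at 0 in 2 clusters. Hist1h1c, for H1.2, had another order: 488 CPM in MDSC_1, 472 in MDSC_4 and 348 in MDSC_2, down to 47.9 CPM in Tumor_11, with a median of 107. The intervals of Hist1h1c in MDSC_1 (406 to 582) and MDSC_4 (371 to 592) overlapped.

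Among the H2A genes, Hist1h2ap had 1115 CPM in CD8_T_1, 513 in Tumor_7 and 460 in Macrophage_2, and 16.2 in Macrophage_1, the lowest. Hist1h2ae had 899 CPM in CD8_T_1 and 378 in Macrophage_2, and was at 0 in CD3_T. Hist2h2ac and Hist1h2ab were led by the same cluster, at 261 and 258 CPM. Hist1h2ac was spread differently, at 83.6 CPM (69.6 to 99.6) in CD8_T_1, 70.6 (65.6 to 75.9) in Tumor_2 and 52.4 in Tumor_3, and its highest 2 intervals overlapped. Hist3h2a, which lies outside the large histone clusters, had 34.1 CPM (17.0 to 61.0) in Fibroblast&Endothelial_2 at its highest, on 11 UMIs. That was 2.27 times its median of 15.0 CPM, and the interval overlapped that of MDSC_3 (12.5 to 63.9). Hist3h2a was at 0 in CD3_T, with an upper limit of 17.3 CPM.

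Among the H2B genes, Hist1h2bc had 606 CPM (514 to 710) in MDSC_1, 341 in MDSC_3 and 281 in MDSC_2, against 36.8 CPM in Tumor_7, its lowest, and a median of 84.8. Hist1h2bl had 81.3 CPM in Tumor_7, 63.6 in Tumor_4 and 37.0 in Tumor_2. Hist1h2be had 137 CPM in MDSC_3 and 118 in MDSC_1, but its gene model (chr13:23583670-23621124, minus strand) overlaps that of Hist1h1e (chr13:23620629-23622558, minus strand), so its counts are uncertain. Hist1h2bc and Hist1h2bl were thus highest in different clusters.

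Among the H3 genes, Hist1h3c had 364 CPM in CD8_T_1, 180 in Macrophage_2 and 52.7 in Fibroblast&Endothelial_2, with a median of 5.55 CPM and 3 clusters at 0. Hist1h3e had 330 CPM in CD8_T_1, 112 in Macrophage_2 and 72.2 in Tumor_7. Among the H4 genes, which code for one and the same protein, Hist1h4d had 711 CPM in CD8_T_1, 223 in Macrophage_2 and 103 in CD3_T, with a median of 10.5. Hist1h4i had 193 CPM in MDSC_1, 176 in MDSC_4 and 94.3 in CD8_T_1, with a median of 29.2 and a lowest level of 13.7 CPM in Tumor_5. These H4 genes were highest in different clusters, and the correlation of their log2(CPM + 10) levels over the 26 clusters was 0.22.

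**Figure D2:**
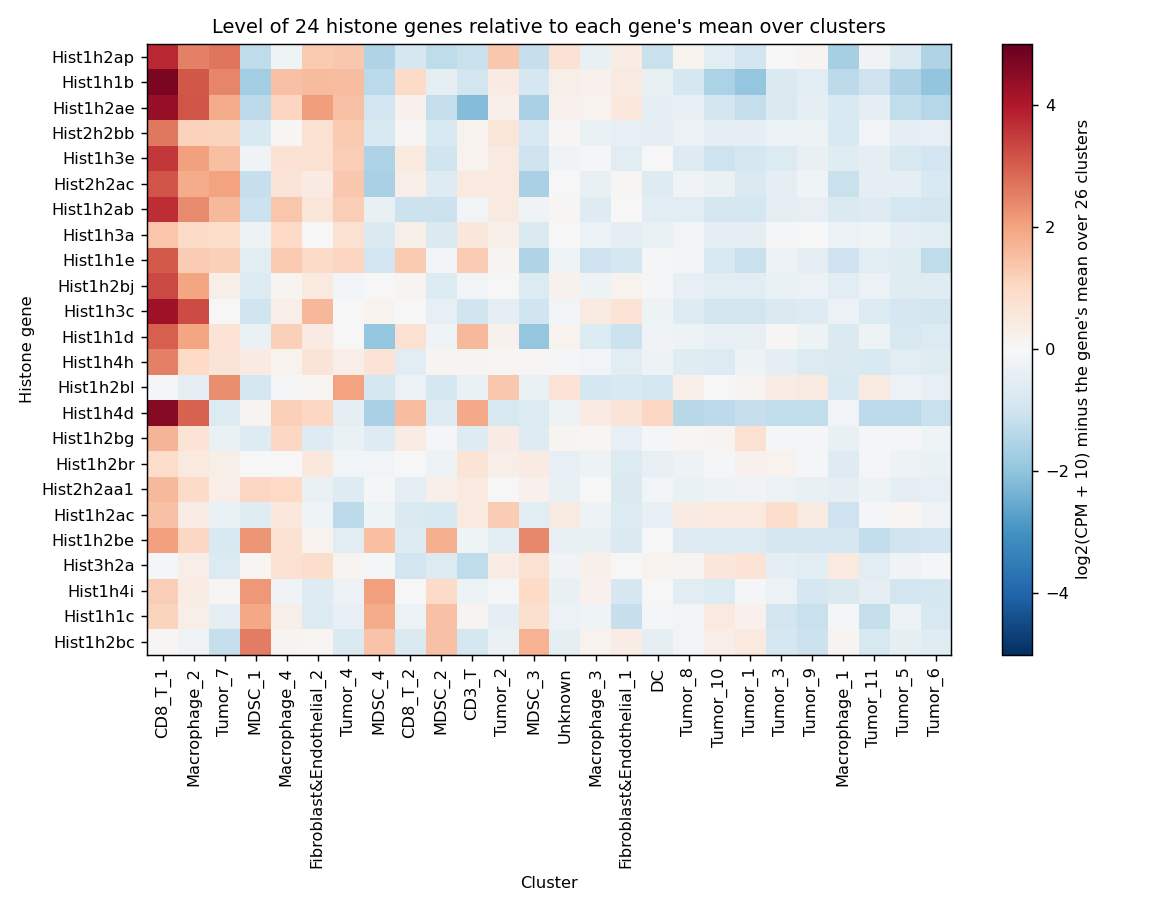
Level of each histone gene with at least 500 UMIs in the clusters of at least 50 cells, as log2(CPM + 10) minus the gene's mean over the 26 clusters, with genes in rows and clusters in columns. Most rows are highest in CD8_T_1, while Hist1h1c, Hist1h2bc and Hist1h4i are highest in MDSC_1.

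CD8_T_1 was set beside CD8_T_2, the other CD8 T cell cluster. CD8_T_1 had more of the G2 and M phase list (5468 against 878 CPM), while the S phase list differed less (3069 against 1742 CPM). CD8_T_2 stood near Macrophage_2 in the S phase list (1718 CPM), yet Macrophage_2 had 3729 CPM of histone UMIs. The histone sum was 8.10 times as high in CD8_T_1 (7.39 to 8.90), at 9652 and 1191 CPM. A gene was called where its CPM differed at least 2-fold with at least 50 UMIs over both groups. Of the 32 histone genes with that many UMIs, 31 were called higher in CD8_T_1, where 9.01% of all 4439 genes were, and 0 were called lower, where 2.19% of all genes were. The filter keeps a gene that is high in only 1 group, so such counts describe the genes that passed and not all 63. The median log2 ratio of the 32 was 3.26, or 3.15 with genes at 0 in CD8_T_2 set to 3 UMIs, and that of all genes was 0.11. Hist1h2ap had 1115 against 35.7 CPM (31.2-fold, 18.6 to 57.2) and Hist1h1b 1881 against 130 CPM (14.5-fold, 11.0 to 19.5). Hist1h1e had a smaller ratio of 3.42 (2.89 to 4.08), and so did Hist1h1c at 2.86 (2.05 to 4.10). Hist1h2bc was the gene not called, at 1.85-fold (1.17 to 3.07). By type the sums of H2A and H3 differed 18.6-fold and 16.7-fold, and those of H4, H2B and H1 6.38-fold, 5.78-fold and 5.74-fold.

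Macrophage_2 was compared with the other macrophage clusters, a comparison chosen after the levels were seen. Its histone sum was 5.72 times as high (5.40 to 6.06). Of 27 genes with enough UMIs, 23 were called higher, against 6.79% of all genes, and 0 lower, against 3.29% of all genes. Their median log2 ratio was 3.22, against 0.08 over all genes. Hist1h1b had 615 against 45.1 CPM (13.6-fold) and Hist1h2ap 460 against 29.3 CPM (15.7-fold), while Hist1h2bc had a ratio of 0.79. Macrophage markers summed to 5785 CPM in this cluster. T cell markers summed to 839 CPM there, against 79.4, 333 and 106 CPM in Macrophage_1, Macrophage_3 and Macrophage_4 and 2458 CPM in CD8_T_1, and all 6 of them had UMIs. The part of these T cell transcripts in the histone level was not tested.

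The tumour clusters had 806 CPM of histone UMIs and the immune clusters 3038, a ratio of 0.265 (0.261 to 0.269). The ratio rests on few clusters: without CD8_T_1 it was 0.499, and without CD8_T_1 and Macrophage_2 it was 0.893 (0.867 to 0.921). Of 55 histone genes with enough UMIs, 38 were called lower in tumour cells, against 25.1% of all genes, and 2 higher, against 20.2% of all genes. These genes had a median log2 ratio of -1.74, against -0.11 over all genes. The sums of H3 and H4 had ratios of 0.13 and 0.15, and that of H2B 0.44. Hist1h4d had 4.32 CPM in tumour cells and 195 in immune cells, and Hist1h3c 2.70 and 108 CPM. Hist1h3i had 4 UMIs in all tumour cells and 187 in immune cells. Hist1h2bl was called the other way, 6.09 times as high in tumour cells (4.22 to 9.14), as was Hist1h2ao at 2.16-fold, on 48 UMIs in tumour cells and 3 in immune cells.

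Among the tumour clusters, Tumor_2 had the highest G2 and M phase list and Tumor_7 the highest S phase list. In Tumor_2 the histone sum was 1.54 times that of the other tumour clusters (1.51 to 1.57), and 1.97 times when Tumor_7 was left out of the others. Of 46 genes with enough UMIs, 22 were called higher, against 3.26% of all genes, and 0 lower, against 3.04% of all genes. Their median log2 ratio was 0.98, against 0.07 over all genes. Hist1h2ac had 70.6 against 32.3 CPM (2.19-fold) and Hist1h2ap 196 against 97.7 CPM (2.01-fold). No H1 gene was called in Tumor_2, where Hist1h1c had a ratio of 0.89.

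In Tumor_7, compared with the other tumour clusters after the levels were seen, the sum was 3.34 times as high (3.27 to 3.42). Of 46 genes, 32 were called higher, against 5.12% of all genes, and 6 lower, against 4.75% of all genes. The median log2 ratio was 1.45, and 0.07 over all genes. Hist1h1b had 390 against 36.7 CPM (10.6-fold) and Hist1h2ap 513 against 80.5 CPM (6.38-fold). Hist1h2bc went the other way at 36.8 against 77.4 CPM (0.48-fold), with Hist1h2ac at 0.40-fold, Hist1h2bg at 0.33-fold and Hist3h2a at 0.29-fold.

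The 3213 tumour cells were also ordered by the share of their UMIs in the S phase list, none of whose genes is a Hist cluster gene, and divided into 4 bins of 803 or 804 cells. The bins are ranges along that share and not cell types, and 198 to 248 cells lay within 10% of each of the 3 limits between bins. From the lowest to the highest bin the histone sum was 593, 542, 658 and 1494 CPM, so it differed mostly in the last bin. The top bin had 2.52 times the bottom one (2.46 to 2.58), and 1.74 times without Tumor_7. Of 41 genes with enough UMIs, 28 were called higher, against 11.4% of all genes, and 1 lower, against 3.85% of all genes. The median log2 ratio was 1.75, and 0.21 over all genes.

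Single genes ran in opposite directions along the S phase order. Hist1h1b had 12.7, 16.1, 35.9 and 205 CPM in the bins (16.2-fold between the outer ones, 14.0 to 18.8), and Hist1h2ap 37.1, 46.3, 85.8 and 304 CPM (8.19-fold). Hist1h1c had 128, 94.0, 74.0 and 75.4 CPM (0.590-fold, 0.547 to 0.635). Hist1h2bc had 107, 78.1, 64.5 and 47.4 CPM (0.445-fold, 0.406 to 0.486), and was the gene called lower. Hist3h2a and Hist1h2bg had ratios of 0.542 and 0.525 without being called, since a call needed 0.5 or less. Hist1h4i and Hist1h2ac were nearly level at 1.14-fold and 1.07-fold. By type the ratio was 5.28 for H3, 4.43 for H2A, 2.28 for H1, 1.65 for H4 and 1.25 for H2B. Median depth was 20353 UMIs in the top bin and 18755 in the bottom one.

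Ordered by the G2 and M phase list instead, the top bin of tumour cells had 3.00 times the histone sum of the bottom one (2.92 to 3.07), and 2.30 times without Tumor_7. Of 41 genes, 30 were called higher, against 8.5% of all genes, and 0 lower, against 3.84% of all genes. Over these genes the median log2 ratio was 2.11, against 0.18 over all genes. Hist1h1b had a ratio of 16.3 and Hist1h2ap of 9.17. Hist1h1c and Hist1h2bc had ratios of 0.76 and 0.78. The bins by the S phase list and by the G2 and M phase list hold overlapping sets of the same cells, since the top S phase bin also had 2833 CPM of the G2 and M phase list against 167 CPM in the bottom one.

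**Figure D3:**
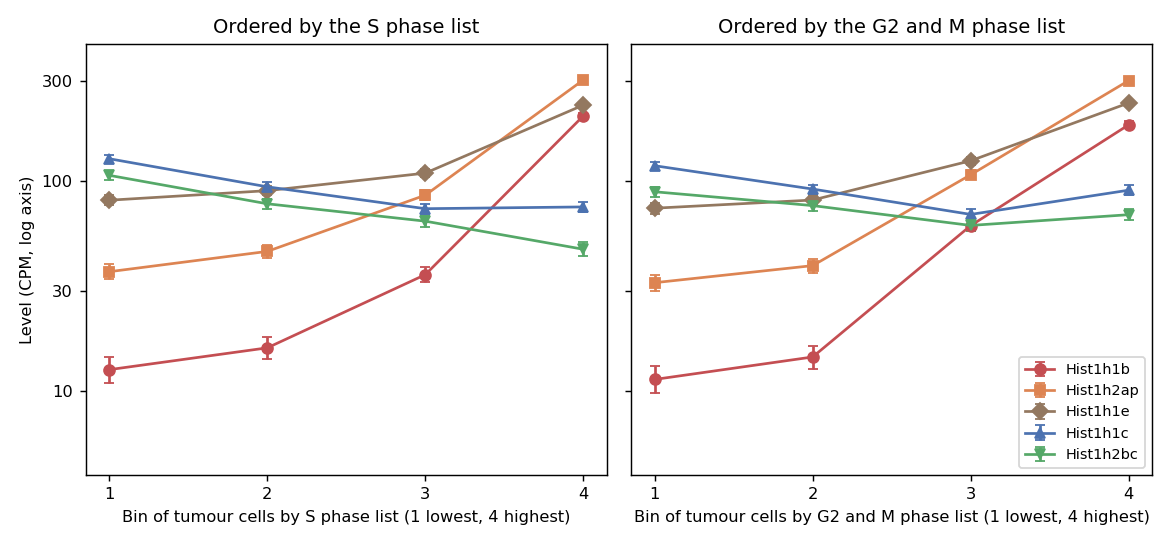
Level of histone genes in tumour cells divided into 4 bins by the S phase list and by the G2 and M phase list, in CPM on a log axis, with 95% counting intervals. Hist1h1b and Hist1h2ap climb to 205 and 304 CPM in the top S phase bin, while Hist1h2bc goes from 107 to 47.4.

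Tumor_7 and CD8_T_1, the clusters with the highest S phase lists (2891 and 3069 CPM), were set side by side after the levels were seen. The S phase list differed little between them (ratio 0.942) and the G2 and M phase list was 0.437-fold in Tumor_7, while the histone sum was 0.236-fold (0.230 to 0.242). Of 41 genes, 36 were called lower in Tumor_7, against 17.9% of all genes, and 3 higher, against 23.0% of all genes. These genes had a median log2 ratio of -2.19, against 0.00 over all genes. The size of the difference depended on the gene: Hist1h2ap had a ratio of 0.461, Hist1h1b 0.208, Hist1h3c 0.026 (9.41 against 364 CPM) and Hist1h4d 0.012 (8.80 against 711 CPM). Hist1h3i had 2 UMIs in Tumor_7 and 118 in CD8_T_1, and Hist1h2an 3 and 136. The 3 genes called higher in Tumor_7 were Hist1h2bl with 81.3 against 7.36 CPM (11.0-fold, 6.10 to 22.3), Hist1h2ad at 4.26-fold and Hist2h2be at 2.41-fold. The cycling tumour and T cell clusters thus differed in which histone genes were measured as well as in how much. Hist1h2bl, Hist1h3i and Hist1h2an share most of their sequence with other genes, as given below, so their single counts are uncertain.

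**Figure D4:**
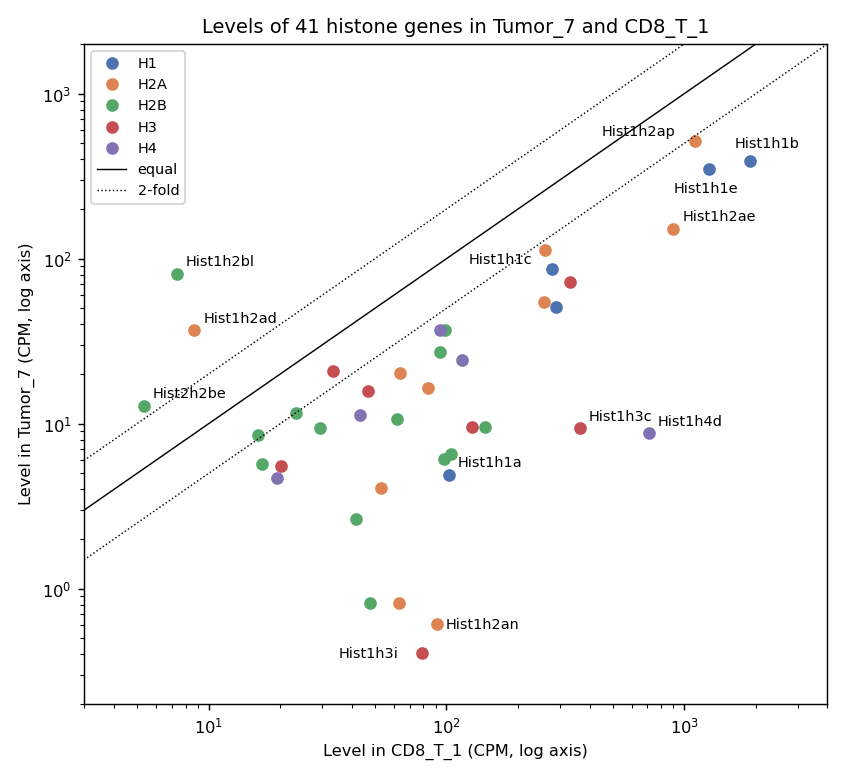
Level of the 41 histone genes with enough UMIs in Tumor_7 against CD8_T_1, in CPM with both axes on a log scale, a solid line for equal levels and dotted lines for 2-fold differences. Most genes lie on the CD8_T_1 side of the line of equal level, and Hist1h2bl, Hist1h2ad and Hist2h2be lie on the Tumor_7 side.

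MDSC_1 to MDSC_4 were compared with the other immune cells, also after the levels were seen. Their histone sum was 1305 CPM, 0.404 times that of the other immune cells (0.380 to 0.429), and their H2B sum 1.59 times. The ratio of the sums depends on which clusters are in the other group, which included MDSC_5. CD8_T_1 (9652 CPM), Macrophage_2 (3729), B cells (2552) and Macrophage_4 (1625) stood above 1305 CPM. CD8_T_2 (1191), CD3_T (1148), MDSC_5 (1080), Macrophage_3 (783), CD4_T (754), DC (724) and Macrophage_1 (507) stood below it. Of 38 genes, 31 were called lower in MDSC_1 to MDSC_4, against 43.9% of all genes, and 4 higher, against 11.3% of all genes. The median log2 ratio was -3.18, or -2.96 with genes at 0 set to 3 UMIs, and -0.71 over all genes. The 4 genes called higher were Hist1h2bc (393 against 87.1 CPM, 4.51-fold, 3.94 to 5.15), Hist1h4i (131 against 45.8 CPM, 2.85-fold), Hist1h1c (378 against 153 CPM, 2.48-fold, 2.18 to 2.81) and Hist1h2be (2.86-fold). Hist1h1b had 25.9 CPM against 550 and Hist1h2ap 23.6 against 351, and 6 genes had no UMI in MDSC_1 to MDSC_4. Median depth was 1047 UMIs per cell in MDSC_1 to MDSC_4, 4316 in the other immune cells and 20428 in tumour cells. Hepatoma markers summed to 884 CPM in MDSC_1 to MDSC_4, and the part of free RNA in these levels was not tested.

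Since depth differed, the share of cells with a histone UMI was compared after thinning each cell to 1000 UMIs. Any of the 63 genes was found in 95.1% of CD8_T_1 cells (206 of 208 were deep enough), 82.1% of Macrophage_2 cells, 79.5% of Tumor_7 cells, 61.3% of MDSC_1 to MDSC_4 cells (405 of 707 deep enough) and 45.6% of tumour cells (3175 of 3213). Without thinning the share was 99.5% in CD8_T_1, 63.9% in MDSC_1 to MDSC_4 and 96.0% in tumour cells. Hist1h1b was found in 69.6% of CD8_T_1, 37.4% of Macrophage_2 and 28.2% of Tumor_7 cells. Its share in MDSC_1 to MDSC_4, the clusters high in neutrophil markers, was 1.90%. Hist1h2bc was found in 28.2% (23.8 to 32.8) of MDSC_1 to MDSC_4 cells, 10.3% of CD8_T_1, 7.29% of Macrophage_2 and 3.61% of Tumor_7 cells, and 6.75% of tumour cells. Hist1h1c was found in 23.9% (19.9 to 28.4) of MDSC_1 to MDSC_4 cells, 27.1% of CD8_T_1 cells and 8.56% of tumour cells.

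Likeness between genes was measured as the Pearson correlation of log2(CPM + 10) over the 26 clusters, which all come from 1 library and differ in depth, so it is given as a description. The genes outside the family most like the histone sum were Arhgap11a (0.84), Hmgb2 (0.84), Nusap1 (0.79), H2afx (0.79) and Aurkb (0.77), among 6451 genes with at least 1000 UMIs. For Hist1h1b they were Pclaf and Top2a (0.93), Aurkb (0.92), Kif11 and Nusap1 (0.91), and for Hist1h2ap they were Bub1, Kif11, Smc2, Clspn and Cdk1, each at 0.90. For Hist1h1e they were Dnajc9 (0.88), Rpa2 (0.86), Hnrnpd (0.85), Usp1 (0.85) and Ezh2 (0.84). With the S phase list, the H2A and H3 sums each had a correlation of 0.81, H1 of 0.57, H4 of 0.39 and H2B of 0.00 to 2 decimals. Hist1h3a had a correlation of 0.87 with the S phase list and Hist1h2bc of -0.63. Hist1h1b and Hist1h2ae were correlated with each other at 0.95. Hist1h1c, Hist1h2bc and Hist1h4i were correlated with one another at 0.72 to 0.86, while Hist1h1c and Hist1h1b were at -0.03.

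The gene models were compared with these levels for the 24 genes with at least 500 UMIs, in classes set after the levels were seen. Over all 63, 20 models ended within 100 bases after the stem-loop (25.3% of histone UMIs), 22 ran past it (49.9%) and 21 held no match (24.9%). Among the 24, the 8 genes whose models ended near the stem-loop had a median ratio of 6.27 between the top and bottom S phase bins of tumour cells, with 7 at 2 or more. The 11 genes whose models ran past it had a median of 1.13, with 4 at 2 or more and 3 below 1, from 0.525 to 8.04. The 5 without a match had a median of 6.73 and ran from 0.445 (Hist1h2bc) to 16.2 (Hist1h1b). This class includes short models, with 381 bases for Hist1h2bl and Hist2h2bb, and a stem-loop beyond a model's end could not be found. The ranges overlapped, and the class of model was not tied to direction in every gene. Of the 4 genes called higher in MDSC_1 to MDSC_4, 3 had models that ran past the stem-loop and 1 had no match, while 7 of the 11 genes whose models ran past it were at least 2-fold lower there. Gene models record what was annotated, and which 3′ ends were captured here cannot be read from the deposited values.

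**Figure D5:**
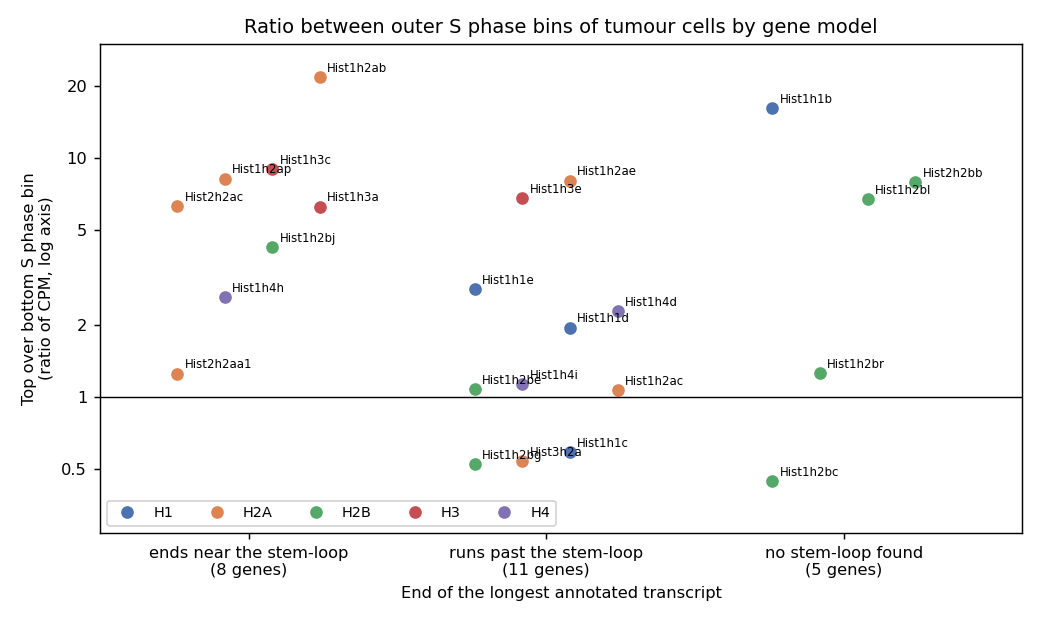
Ratio of the top to the bottom S phase bin of tumour cells for the 24 histone genes with at least 500 UMIs, grouped by where the GENCODE M21 model ends, on a log axis. The median is 6.27 where the model ends near the stem-loop and 1.13 where it runs past it, with overlapping ranges.

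Members of the family are alike in sequence, which bears on how reads are shared out between them. Of the 63 genes, 59 shared at least one run of 50 bases with another gene's transcript. Hist1h2ap shared 93.1% of its runs, and all of those in its last 300 bases, so its level may include or lack reads of near-identical copies. Hist1h1e shared 32.0%, and all of the runs in its last 300 bases, with the overlapping Hist1h2be model among the genes concerned. Hist1h1b shared none. Hist1h1c shared 8.54% of its runs, and the last 300 bases of Hist1h1c and Hist1h4i shared none.

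By position, 50 of the 63 genes lie on chromosome 13 and gave 91.9% of the UMIs, in a block of 21 genes at chr13:21715763-22043676 (32.1%) and a block of 29 at chr13:23531050-23764406 (59.7%). A further 10 genes lie on chromosome 3 (6.14%). Hist1h1b (chr13:21779883-21780625, minus strand) and Hist1h1c (chr13:23738808-23740367, plus strand) lie in different blocks. 11 pairs stood head to head with neighbouring starts, 10 of them an H2A gene with an H2B gene, and the UMIs within a pair differed 1.17-fold to 22.2-fold. Hist1h2ap had 16.5 times the UMIs of its partner Hist1h2br, and Hist1h2bc had 2.15 times those of Hist1h2ac. The levels of Hist1h2ac and Hist1h2bc over the 26 clusters had a correlation of -0.26, so this head-to-head pair did not run together. Other such pairs with at least 500 UMIs in both genes had positive correlations. These were 0.51 for Hist1h2ap with Hist1h2br and 0.55 for Hist1h2ae with Hist1h2bg.

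Other genes of histone supply were taken from 3 lists: variants listed as made outside S phase, genes that process histone mRNA, and histone chaperones, which carry histones to DNA. The name of the variant list was fixed beforehand and is not a result. Its member H2afx was among the genes most like the histone sum (0.79). Between CD8_T_1 and CD8_T_2, 1 of 9 measured variants was called higher (H2afx, 7.46-fold), as were 1 of 12 processing genes (the exonuclease Eri1, 2.98-fold) and 3 of 15 chaperones (Hjurp 7.17-fold, Asf1b 2.67-fold and Ssrp1 2.05-fold), and none was called lower. Over all genes 9.01% were called higher and 2.19% lower, so the counts of variants and processing genes were near the share of all genes. Slbp, which codes for the protein that binds the stem-loop, had a ratio of 1.31. Between the S phase bins of tumour cells, 5 of 10 variants, 6 of 16 processing genes and 12 of 19 chaperones were called higher, where 11.4% of all genes were. These held the chromatin assembly genes Asf1b at 18.2-fold, Chaf1a at 16.1-fold and Chaf1b at 14.0-fold, and Slbp at 4.01-fold, which belongs to the ordering list itself. Slbp is counted among the 6 processing genes although the ordering favours it, while the share of all genes leaves list genes out. In MDSC_1 to MDSC_4 the variant list summed to 8102 CPM, against 4880 CPM in all immune cells, which include them. Most of it was H3f3b, a gene of the H3.3 variant, at 5559 CPM against 1638 in the other immune cells (3.39-fold). The other variants are not given singly, so H3f3b does not stand for the list. In this comparison 11.3% of all genes were called higher and 43.9% lower.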

How the data were processed

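Cells of 1 SIGLEC15 antibody library and 1 IgG library were analysed, grouped by the labels' treatment and by the cluster names that the authors deposited. The submitters' processing notes name Cell Ranger 2.1.1. For build, cell filters, clustering and doublets, methods were not given in the sources used here. The authors deposited natural log values, 1 per gene and cell, whose exponentials minus 1 sum to 10000 in each cell. UMI counts were recovered from them in all 5482 cells as whole numbers within 0.001, summed per cluster and scaled to CPM of the cluster total. Levels have exact Poisson, ratios exact conditional and shares exact Clopper-Pearson 95% intervals, which cover counting error only. With 1 library per group no test was made. A gene was called at 2-fold with at least 50 UMIs over both groups. Where a group was at 0, 3 UMIs took the place of 0 for the median. Shares of cells used each cell thinned to 1000 UMIs.

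Genes were named by rule: those with at least 500 UMIs, the 3 highest of each type, the 5 genes most alike to the sum and to the 3 highest members, and genes of the lists. Hist1h3i, Hist1h2an, Hist1h2ao, Hist1h2ad, Hist2h2be and Hist2h3c1 were named after their values were seen. The members and lists were chosen with earlier results of these data known. The comparisons of Tumor_7, Macrophage_2 and MDSC_1 to MDSC_4 were chosen after the data were seen. Alternatives changed the depth minimum, the scaling, the clusters kept, the leading member and the call rule. The scripts were tested on simulated data. Python 3.11.15, numpy 2.4.6, pandas 2.3.3, scipy 1.17.1, matplotlib 3.10.9 and scanpy 1.11.5 (with scrublet) were used. Sequences came from GENCODE M21 and RefSeq GRCm38.p6, matched by symbol.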

Additional observations from a re-analysis of the deposited data

How the results depend on the processing

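Of 75 alternative values, 32 moved by less than their counting interval or stayed within 1.5 times a count, 43 moved and 0 reversed. No paired analysis was possible because each group is 1 library. The tumour to immune ratio of 0.265 became 0.260 and 0.246 with at least 1000 and 2000 UMIs per cell, 0.367 as a mean over cells, 0.315 without ribosomal and mitochondrial genes, 0.257 without Hist1h1e, and 0.251 without MDSC_5, Unknown, Adipocyte, Tumor_4 and Macrophage_4. Chosen after seeing the data, leaving out CD8_T_1 gave 0.499 and leaving out Macrophage_2 too gave 0.893. At 1.5-fold, 4 genes were higher in tumour cells, against 2 at 2-fold. The CD8_T_1 to CD8_T_2 ratio of 8.10 became 9.44 as a mean over cells and 10.2 without Hist1h1e. The Tumor_2 ratio of 1.54 became 1.34 as a mean over cells, 1.47 without ribosomal and mitochondrial genes, 1.57 without Hist1h1e, 1.58 without the 5 clusters and, chosen after seeing the data, 1.97 without Tumor_7. There, 35 genes were higher at 1.5-fold against 22, and 1 was lower with at least 20 UMIs against 0. The S phase bin ratio of 2.52 became 2.45 with at least 2000 UMIs, 2.62 as a mean over cells, 2.30 without ribosomal and mitochondrial genes, 2.34 without the 5 clusters, 2.32 with cells thinned to 5000 UMIs and 1.74 without Tumor_7. Genes called lower there numbered 2 with at least 20 UMIs and 4 at 1.5-fold, against 1. The G2 and M phase bin ratio of 3.00 became 3.13 as a mean over cells, 2.75 without ribosomal and mitochondrial genes, 2.85 without the 5 clusters and 2.30 without Tumor_7. Shares of cells with a histone UMI, thinned to 500 and to 2000 UMIs, were 41.4% and 86.5% in MDSC_1 to MDSC_4, 29.7% and 63.7% in tumour cells, 90.1% and 97.9% in CD8_T_1, and 40.0% and 70.0% in macrophages. Without tumour clusters the type shares were 38.9% for H1, 28.8% for H2A, 12.0% for H2B, 9.83% for H3 and 10.5% for H4. The cause of these shifts was not tested. Leaving out predicted doublets tests nothing, since the caller marked 3 cells. Depth limits single genes in small or shallow clusters: 3 UMIs of Hist2h2bb would be 22.7 CPM in Macrophage_4.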
